A study of Homo sapiens with 8 samples.

Results

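Chromosome 15 is an acrocentric human chromosome, with its genes on the long arm. Here it is described through 351 sites of open chromatin, of 14191 listed by the authors over 23 chromosomes. These are all entries placed on chromosome 15 in the 2 lists, and the sites were chosen by the authors' own calls of changed accessibility. Of the 351, 191 belong to a list whose name says that p63 closes what the morphogens had opened ("p63-closed sites"), and 160 to a list named only for opening by the morphogens ("opened sites"). No site of one list overlapped a site of the other on this chromosome. Chromosome 15 came up for description because its mix of the lists was already known to be uneven, so that mix is given below as a description with no test.

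Accessibility was measured by ATAC-seq, in which a transposase cuts and tags open DNA, in H9, a human embryonic stem cell line. The design has 8 samples in 4 groups of 2. Cells lacking p63 (p63-/-) were taken at day 7 of retinoic acid (1 uM) and BMP4 (5 ng/ml). A TetO:Tp63+/- line, in which doxycycline (2 ug/ml for 2 days) switches on p63, was taken at day 0. Wild-type cells were taken at day 7 of the same morphogens and at day 0, as stem cells. The day 7 cells of both genotypes are labelled surface ectoderm. The labels tie the p63-closed list to the p63-/- and wild-type day 7 samples, and the opened list to the wild-type day 7 and day 0 samples. They tie neither list to the TetO:Tp63+/- line, which is not described further. They do not say whether the lines are clones. The lists hold positions only, so depth is unknown, there is no value per sample, and no comparison between cultures was tested. Intervals below are exact at 95%, cover counting error only, and treat sites as independent, which close neighbours may not be.

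Retinoic acid is a small lipid signal that enters the nucleus and binds receptors on DNA, and BMP4 is a secreted protein that signals through SMAD proteins. Together they turn stem cells into surface ectoderm, the simple epithelium that gives rise to the epidermis. p63 is the transcription factor that commits this epithelium to the keratinocyte path. Chromosome 15 carries several genes tied to these signals. MEIS2 encodes a homeobox factor and NR2F2 (COUP-TFII) an orphan nuclear receptor, and both are known to respond to retinoic acid. ALDH1A2 and ALDH1A3 encode enzymes that make retinoic acid, CRABP1 a protein that binds it in the cytoplasm, and STRA6 the receptor that takes up its precursor, vitamin A.

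Of the listed sites on chromosome 15, 54.4% were p63-closed (interval 49.04 to 59.71%), against 42.2% on the other chromosomes together (41.4 to 43.1%). Chromosome X had 7.39%, and without it the other chromosomes together had 43.4% (42.5 to 44.2%). The share on chromosome 15 was the highest of the 23 chromosomes. The next was chromosome 5, at 48.7%, and their intervals overlapped. Chromosome 17, the closest to it in the length its sites span, had 45.8% (40.3 to 51.4%), also with an overlapping interval. Chromosome 14, acrocentric too, had 47.01% (42.3 to 51.7%), with an overlapping interval, and chromosome 16 had 38.5% (32.99 to 44.21%), with an interval wholly lower.

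The density of opened sites stood further from that of the other chromosomes than the density of p63-closed sites did. Both lists carry numbered names that run along the chromosome, so that they appear to be drawn from 1 catalogue of candidate regions, which spans 50597 entries here. Entries fell every 1611 bp on average on chromosome 15, close to the 1599 bp over all chromosomes. For the whole chromosome a density per entry therefore compares much as a density per base pair does, but not in parts where entries are sparse. Per 1000 catalogue entries there were 3.77 p63-closed sites on chromosome 15 (interval 3.26 to 4.35), an interval that includes the 3.28 of the other chromosomes together (3.41 without X). It ranked 5 of 23, counted from the highest. Opened sites came to 3.16 per 1000 entries (2.69 to 3.69), against 4.49 on the other chromosomes, the lowest of the 23. Chromosome 14 had 3.73 p63-closed and 4.21 opened sites per 1000 entries, and chromosome 16 had 2.38 and 3.81. Chromosome 17 had 2.99 p63-closed and 3.54 opened sites per 1000 entries, and its opened interval (3.03 to 4.10) overlapped that of chromosome 15. Chromosomes 15 and 14 were thus close in p63-closed density and further apart in opened density, where their intervals met without overlapping (2.691 to 3.692 on chromosome 15, against 3.694 to 4.780 on chromosome 14).

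**Figure D1:**
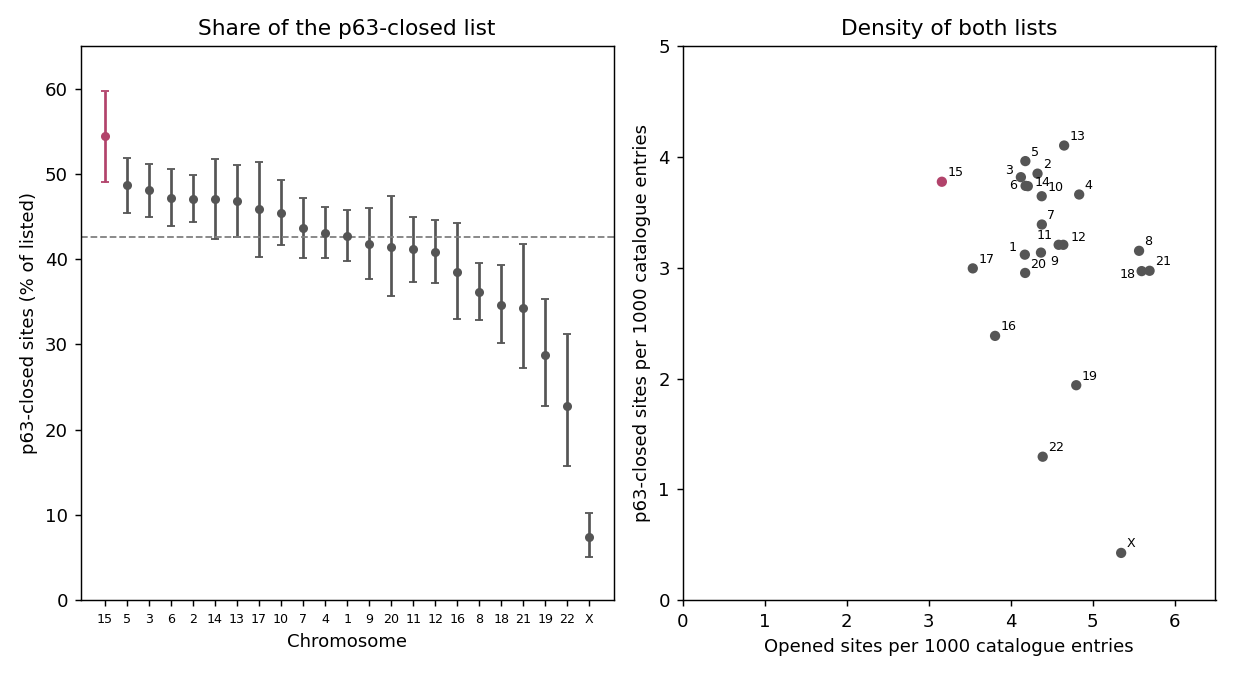
Left, how many of each chromosome's listed sites were p63-closed (percent, with exact 95% intervals); the dashed line is the share over all chromosomes, 42.5%. Right, sites of each list per 1000 catalogue entries, 1 point per chromosome; chromosome 15 (red) lies farthest to the left, at 3.16 opened sites, and at 3.77 p63-closed sites.

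Along the chromosome the p63-closed sites were unevenly spread. The long arm was divided into 17 bins of 5 Mb, of which the first and last are only partly covered by the catalogue. The p63-closed density ranged from 0.870 to 9.497 per 1000 entries between bins, with a median of 3.28. The opened density ranged from 1.52 to 11.1, with a median of 3.43. The top opened value was in the first bin, which spans only 994 entries, so it reflects sparse entries rather than many sites. That bin held 11 opened sites, while the bin from 60 to 65 Mb held 17 at 4.84 per 1000 entries. Over the 17 bins the densities did not run together (Pearson's r = -0.19, Spearman's rho = -0.04, given as a description; both share the same entry counts).

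Both bins with the most p63-closed sites stood well apart from the rest. From 95 to 100 Mb there were 33 p63-closed and 12 opened sites, a p63-closed share of 73.3% (interval 58.1 to 85.4%). No other bin of the 600 on all chromosomes had as many p63-closed sites. From 35 to 40 Mb there were 29 p63-closed and 11 opened sites, or 72.5% (56.1 to 85.4%). Only 8 bins of the 600, these included, had 29 p63-closed sites or more. The bin from 95 to 100 Mb is known to hold NR2F2, and that from 35 to 40 Mb MEIS2. Together these 2 bins held 62 of the 191 p63-closed sites (32.5%) and 23 of the 160 opened sites (14.4%).

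Outside these 2 bins, which were singled out after their counts were seen, 129 p63-closed and 137 opened sites were left, and the p63-closed share was 48.5% (42.3 to 54.7%). The p63-closed density there was 2.94 per 1000 entries (2.45 to 3.49), against 9.28 in the 2 bins. The opened density was 3.12 (2.62 to 3.69), against 3.44 in the 2 bins. Low opened density was spread more widely. In 14 of 17 bins (82.4%) it lay below the opened density of all chromosomes together, where 52.9% of bins with at least 5 sites did so over all chromosomes. For p63-closed density, 8 of 17 bins (47.1%) lay above that of all chromosomes, against 44.0% of bins over all chromosomes.

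Besides these, 1 more bin had a share whose interval lay above 50%. From 45 to 50 Mb there were 16 p63-closed and 5 opened sites, or 76.2% (52.8 to 91.8%). SEMA6D, a guidance cue of the semaphorin family, FBN1, the fibrillin of elastic fibres, and FGF7, a growth factor for epithelial cells, are known in this bin. Such bins were 3 of 17 here (17.6%), against 6.59% of bins over all chromosomes. In all, p63-closed sites outnumbered opened ones in 8 of 17 bins (47.1%), against 30.3% over all chromosomes, opened sites were the more numerous in 8, and 1 bin had 7 of each. Because the chromosome was taken up for its mix, these bin counts, and that of intervals below 50% given next, partly follow from that choice. The bins of all chromosomes include those of X, where 7.39% of sites were p63-closed. From 85 to 90 Mb the split was 12 p63-closed to 5 opened, or 70.6%, with an interval (44.0 to 89.7%) that includes 50%.

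The opposite mix was found nearest the centromere. From 20 to 25 Mb there was 1 p63-closed site beside 11 opened sites, a share of 8.33% (0.211 to 38.5%). This was the only bin of the 17 (5.88%) whose interval lay below 50%, while 24.4% of bins over all chromosomes did. The opened list also held more sites from 60 to 65 Mb, with 7 p63-closed and 17 opened sites, and from 90 to 95 Mb, with 3 p63-closed and 7 opened. It was ahead too from 100 Mb to the final site, with 3 p63-closed and 6 opened sites. The intervals of these 3 shares all include 50%. In the other 9 bins the lists differed by at most 3 sites.

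**Figure D2:**
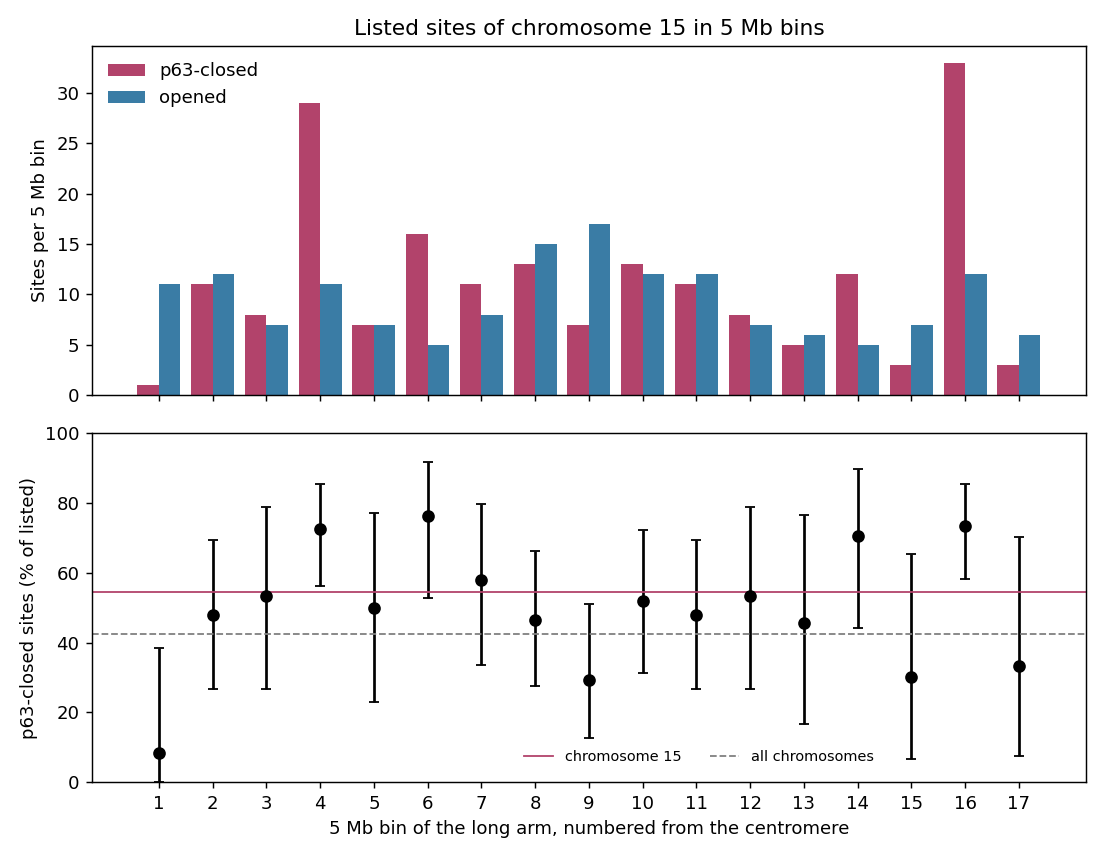
Top, p63-closed and opened sites in each of the 17 bins of 5 Mb, numbered from the centromere (bin 1 is 20 to 25 Mb of hg19). Bottom, the p63-closed share of the sites in each bin with its exact 95% interval, beside the share on chromosome 15 (solid line, 54.4%) and on all chromosomes (dashed line, 42.5%); bins 4 and 16, with 29 and 33 p63-closed sites, stand out, and bin 1 has 1.

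Of 83 windows of 1 Mb, 62 held at least 1 p63-closed site (74.7%, against 70.1% over all chromosomes), 65 at least 1 opened site and 46 both. Windows with at least 8 sites of either list numbered 13 (15.7%), against 19.9% over all chromosomes, so dense windows were no more frequent here than elsewhere. They held 147 of the 351 sites (41.9%), with more p63-closed sites in 9 of the 13 and more opened sites in 4. The dense windows of the bins of MEIS2 and NR2F2 are among those 9. No share over all chromosomes is given here for that split, or for windows with opened sites or with both lists. The genes named below are placed to the nearest Mb from general knowledge of hg19, and no annotation of that build was used, so no site is assigned to a promoter, intron or other part of a gene. All 107 genes so placed are on chromosome 15 in RefSeq's table for GRCh38.p14, and all 5612 pairs in different windows stand in the same order there.

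The window with the most sites was that of NR2F2, from 96 to 97 Mb, with 14 p63-closed and 6 opened sites, 4.01 times the mean density of the chromosome. The window before it, from 95 to 96 Mb, held 9 p63-closed and 4 opened sites, and the one after it 5 p63-closed and no opened sites. In RefSeq's gene order NR2F2 stands between MCTP2, which encodes a membrane protein with calcium-binding domains, and ARRDC4, an arrestin-like protein. Within these 3 Mb, sites gathered in 3 stretches in which neighbours lay at most 50 kb apart. The first, chr15:95672753-95771103, held 6 p63-closed sites and no opened site, the widest of them 3124 bp. The second, chr15:96388789-96527906, held 5 p63-closed sites and 1 opened site. The third and longest on the chromosome, chr15:96665160-96901035, held 11 sites over 236 kb, with 6 p63-closed and 5 opened sites interleaved. Of the 6 opened sites in the window, 5 were thus in this last stretch, where chr15:96859918-96860701 and chr15:96899785-96901035 closed it on the far side. No p63-closed site lay between chr15:96836196-96837721 and chr15:97170078-97171235.

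The MEIS2 segment had the same kind of layout. From 35 to 38 Mb there were 25 p63-closed and 8 opened sites, a share of 75.8% (57.7 to 88.9%). In 95 to 98 Mb around NR2F2 there were 28 and 10, a share of 73.7% (56.9 to 86.6%). The bounds of both segments were set after their counts were seen. The longest uninterrupted run of p63-closed sites on the chromosome, 11 sites over 0.635 Mb from 36466300 to 37101537, lay in the MEIS2 segment. Its last 5 sites formed a stretch of their own, chr15:37021600-37101537. In it chr15:37021600-37022346 and chr15:37022723-37023838, entries with consecutive catalogue numbers, were 376 bp apart, the closest pair on the chromosome. The next stretch, chr15:37179169-37403454, held 9 sites, and here the lists were interleaved, with 4 p63-closed and 5 opened sites. Its widest member was opened, chr15:37348204-37351782, at 3579 bp. RefSeq's order puts MEIS2 between CDIN1, a gene linked to congenital anaemia, and TMCO5A. In the window from 35 to 36 Mb, next to a further one of 7 p63-closed and 2 opened sites, there were 8 p63-closed sites and 1 opened site. After the last site of the MEIS2 segment, a p63-closed site ending at 37514224, no site was listed for 1.37 Mb.

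**Figure D3:**
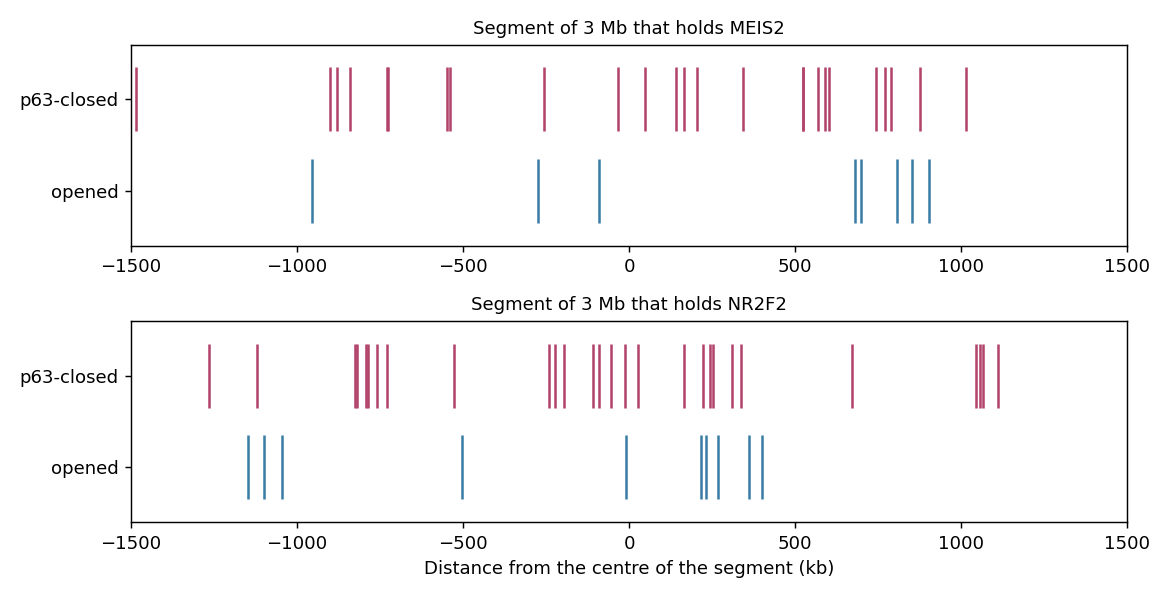
Positions of listed sites in the 3 Mb segments known to hold MEIS2 (top) and NR2F2 (bottom), as distance in kb from the centre of each segment; every bar is 1 site, with p63-closed sites above opened sites. There are 25 and 28 p63-closed sites. Of the 8 opened sites (MEIS2), 5 lie in 1 stretch with 4 p63-closed sites, and of the 10 (NR2F2), 5 lie in 1 stretch with 6 p63-closed sites. The other stretches in these segments hold mostly or only p63-closed sites.

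Dense windows with a majority of opened sites were found elsewhere. From 63 to 64 Mb there were 4 p63-closed and 9 opened sites. The window is known for TPM1, a tropomyosin of actin filaments, for CA12, a membrane carbonic anhydrase of epithelia, and for part of TLN2, a talin that links integrins to actin. Within it the stretch chr15:63030495-63239050 held 4 p63-closed and 5 opened sites. From 70 to 71 Mb, the window of the Groucho corepressor TLE3, there were 6 p63-closed and 9 opened sites. From 57 to 58 Mb, where TCF12 (an E-protein transcription factor) and CGNL1 (a junction protein of epithelia) are known, there were 1 p63-closed and 7 opened sites. The remaining such window, from 50 to 51 Mb, had 4 p63-closed and 5 opened sites.

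Other windows with many sites held mostly p63-closed ones. From 56 to 57 Mb, where NEDD4, a ubiquitin ligase, and RFX7, a winged-helix factor, are known, there were 7 p63-closed and 3 opened sites. Of these, 6 lay in the stretch chr15:56029137-56079353, the most compact of the 7 stretches with at least 5 sites, at 50.2 kb, with 4 p63-closed and 2 opened sites. From 27 to 28 Mb, the window of the GABA receptor subunit genes GABRA5 and GABRG3, there were 7 p63-closed and 2 opened sites. It is 1 of 5 windows with 9 sites, with those at 35, 36, 40 and 50 Mb. On either side of 26 to 28 Mb, p63-closed sites were few. Before 26 Mb there was 1 p63-closed site beside 14 opened sites. This part includes the windows of the imprinted genes MKRN3, MAGEL2, NDN, SNRPN and UBE3A, but not all of the 14 opened sites lie there. Before these windows, 1 opened site lay from 20 to 21 Mb and 4 from 22 to 23 Mb. From 26 to 28 Mb there were 11 p63-closed and 5 opened sites, and from 28 to 33 Mb 2 p63-closed and 9 opened sites. OCA2, a pigmentation gene, TJP1, which encodes a tight-junction protein, and KLF13, a zinc-finger factor, are known in that last interval, whose bounds were also set after the counts were seen.

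The 7 stretches together held 52 sites (14.8% of the chromosome's), 34 p63-closed and 18 opened, and 2 of them held p63-closed sites only. Stretches were not counted on other chromosomes, so whether these numbers or their split are particular to chromosome 15 was not tested. Their sites covered 5.61 to 18.8% of their length.

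Genes of the retinoid and steroid pathway showed no common mix. Of 11 such genes, 4 had more p63-closed than opened sites in their window, 6 had more opened sites and 1 had equal numbers. The window of ALDH1A2 held 1 p63-closed and 2 opened sites, and that of ALDH1A3 held 2 p63-closed and 1 opened site. The window of CRABP1 held no p63-closed site and 2 opened sites, and that of STRA6 held 2 p63-closed sites and no opened site. Over all 83 windows, p63-closed sites were ahead in 38, opened sites in 38, 5 had equal numbers and 2 had no site.

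Transcription and chromatin regulators were split as well, with more p63-closed sites in the windows of 6 of 20 genes, more opened sites in 11, equal numbers in 2 and no site in 1. Over all 107 genes placed, p63-closed sites were ahead in the windows of 42 and opened sites in those of 57, so the lists here and below are to be read against these counts. Among genes of the BMP and TGF-beta pathways, the window of SMAD3, a TGF-beta effector, held no p63-closed site and 4 opened sites. SMAD6, an inhibitor of BMP signals, is known at the border of 2 windows that held 1 p63-closed and 7 opened sites. The neighbouring window of SKOR1, a SMAD-binding corepressor, held 5 p63-closed sites and no opened site. GREM1, a secreted BMP antagonist, is known in a window with 4 p63-closed sites and 1 opened site. Signalling genes had more p63-closed sites in the windows of 11 of 22 and more opened sites in 9.

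Of 12 epidermal and pigment genes, p63-closed sites were ahead in the windows of 5 and opened sites in those of 7. Their median of 3 sites per gene was that of all 107 genes. TGM5, a transglutaminase of the cornified envelope, is known in a window with 1 p63-closed site and no opened site. CERS3, which makes the very long ceramides of the skin barrier, had 3 p63-closed and 5 opened sites in its windows. The window of PAK6, a kinase of epithelial junctions, held 5 p63-closed and 4 opened sites. BNC1, a zinc-finger gene of basal keratinocytes counted above among the transcription regulators, is known in a window with no p63-closed site and 2 opened sites. For genes of matrix, cytoskeleton and adhesion the counts were 8 of 19 with more p63-closed and 9 with more opened sites. For neural and other long genes they were 8 of 17 and 9, and for the imprinted region 0 of 6 and 6. Genes that share a window share its counts, so these are not independent.

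The lists also differed in how closely their sites were set, a measure that depends on the densities given above. On chromosome 15 a p63-closed site had its nearest fellow at a median distance of 40.1 kb, against 74.6 kb over all chromosomes. Another p63-closed site lay within 50 kb of 54.5% of them (interval 47.1 to 61.7%), against 41.8% over all chromosomes (40.54 to 43.05%). Chromosome 14 had 44.3% (37.5 to 51.3%) and chromosome 16 had 41.03% (32.02 to 50.5%), both with intervals that overlapped that of chromosome 15. Outside the bins of MEIS2 and NR2F2 the share on chromosome 15 was 45.7% (36.9 to 54.7%), an interval that includes the value of all chromosomes. Opened sites were sparser: the median distance to the nearest other opened site was 120 kb, against 74.7 kb over all chromosomes. Another opened site lay within 50 kb of 28.8% of them (21.9 to 36.4%), against 40.3% (39.2 to 41.4%). On chromosome 14 this was 33.1% (27.1 to 39.4%), with an overlapping interval, and on chromosome 16 46.5% (39.2 to 53.9%), with an interval wholly higher. Between lists, p63-closed sites had their nearest opened site at a median of 187 kb, against 120 kb over all chromosomes. An opened site lay within 50 kb of 25.1% of p63-closed sites (19.1 to 31.9%), an interval that includes the 28.9% of all chromosomes.

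Read in order along the chromosome, the 351 sites form 350 neighbouring pairs. In 208 of them (59.4%, interval 54.1 to 64.6%) both sites came from the same list, against 61.5% over all chromosomes. Pairs of p63-closed sites numbered 120 and were a median of 59.7 kb apart, pairs of opened sites numbered 88 and were 139 kb apart, and the 142 mixed pairs were 124 kb apart. Within 10 kb lay 44 of the 350 pairs, against 1711 of 14168 over all chromosomes, and within 50 kb 36.3%, against 35.1%. Close pairs were thus about as frequent here as over all chromosomes. Of the 44 pairs within 10 kb, 21 were both p63-closed, 6 both opened and 17 mixed, with no such split over all chromosomes given here. The closest mixed pair was 481 bp apart, with the p63-closed site chr15:39935967-39936906 beside the opened site chr15:39933306-39935485. It lies in the window known for THBS1, the matrix protein thrombospondin, which held 4 p63-closed and 2 opened sites. Runs of at least 5 sites from the same list numbered 21, of which 12 were p63-closed and 9 opened, with no count over all chromosomes given here. After the run beside MEIS2, the longest p63-closed runs held 10 sites, from 97170078 to 99410358, and 9 sites, from 68038492 to 69700882. The longest opened run, of 8 sites, began at the first listed site and ended at 23729659.

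Site width was not used to choose the sites. In the median a p63-closed site was 1429 bp wide (interval 1313 to 1540 bp), with quartiles at 1134 and 1896 bp. An opened site was 1696 bp wide (interval 1558 to 1780 bp), with quartiles at 1149 and 2094 bp. The difference of the medians, p63-closed minus opened, was -266.5 bp, and the intervals of the medians did not overlap. On the other chromosomes the medians were 1535 bp for p63-closed and 1595 bp for opened sites, both inside the intervals found here. The 3 widest p63-closed sites were chr15:54121701-54125854, at 4154 bp, in the window of the synaptic gene UNC13C, chr15:55245489-55249432, at 3944 bp, and chr15:36662719-36666609, at 3891 bp, in the long run before MEIS2. The widest opened site, of 4699 bp, was also the one nearest the centromere, chr15:20505909-20510607. The next were chr15:73116202-73119965, at 3764 bp, and chr15:57023312-57026962, at 3651 bp, near TCF12. In total the p63-closed sites covered 303 kb and the opened sites 279 kb.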

How the data were processed

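The authors deposited 2 lists of sites with 4 columns each (chromosome, start, end and a numbered name) and no score per site. Positions are in base pairs, and the 2 lists hold no other measure, such as a count or signal. Per the submitters' processing notes the tools were MACS2, DESeq2, Bowtie2, SAMtools and FastQC (no versions), with hg19 and GRCh37 as builds. What each tool did, its thresholds, and whether replicates were pooled is not given in the sources used here.

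Starts were shifted to 1-based positions on hg19, and sites were placed in bins by their centre. Catalogue entries were taken from the numbers in the names, interpolated between sites; chromosome 15 has 0 jumps in this numbering, and 6 jumps on other chromosomes were estimated from distance. Shares have exact Clopper-Pearson intervals, densities exact Poisson intervals and medians exact order-statistic intervals, all at 95%. No p-value was computed. Bins over all chromosomes, X included, were compared where they held at least 5 sites.

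The regions named are every bin, the 8 windows with the most sites (5 tied at 9 sites for the last 2 places, given to those with more p63-closed sites, then by position), stretches of at least 5 sites with gaps up to 50 kb, the 3 widest sites of each list and the closest mixed pair. Other windows, genes, runs and segments were chosen after their values were seen. The members, gene lists and rules were set with earlier results of these data known. Functions were tested on simulated data. The software was matplotlib 3.10.9, pandas 2.3.3, scipy 1.17.1 and numpy 2.4.6 under Python 3.11.15. No hg19 sequence was used, so none is printed.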

Additional observations from a re-analysis of the deposited data

How the results depend on the processing

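No paired analysis was possible because neither list gives values by sample, so leaving out a replicate could not be tried either. Of 15 alternatives, 11 stayed within the interval of the value or within 1.5 times the count, and 4 did not. The p63-closed share of chromosome 15 went to 48.5% without the bins of 35 to 40 and 95 to 100 Mb, an alternative chosen after seeing the data, since these bins hold 62 of the p63-closed sites. Bins with more p63-closed sites numbered 5 of 9 at 10 Mb, where there are fewer bins. Stretches with at least 5 sites numbered 2 with gaps up to 25 kb and 13 with gaps up to 100 kb, as a wider gap joins more sites. The lists hold no score, so a stricter threshold could not be tried, and a site missing from them is not shown to be unchanged.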

Other observations

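The longest intervals of chromosome 15 without a listed site are given with the catalogue entries they span. Entries fell every 1611 bp on average, so intervals of this length can be expected to hold many. The longest, of 2.32 Mb, from 20510608 to 22832901, spans 352 entries. That of 1.79 Mb, from 82087253 to 83879005, spans 791 entries and, like the longest, has an opened site on either side. That of 1.68 Mb, from 73195660 to 74876497, spans 1163 entries. The window from 93 to 94 Mb, known for the chromatin remodeller CHD2 and for RGMA, a co-receptor for BMPs, held no site of either list. It lies in an interval of 1.30 Mb, from 92739942 to 94036519, that spans 922 entries.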
